A study of Mus musculus with 14 samples.

Results

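The 35 genes described here encode enzymes and subunits that write, read or erase marks on chromatin, together with the DNA methyltransferases and demethylases. They were taken as a named set, and a probe was assigned to a gene through the transcript accession in the scanner files. Of the 35 genes, 30 had a probe matched in this way, 50 probes in all, against 31243 genes tested on the array, of which 16260 had a symbol. Tet1, Tet3, Kmt2a, Hdac1 and Kat6a had no matched probe and were not analysed here. The cells were FDCPmix, a mouse progenitor line of bone marrow origin that depends on interleukin-3 and can form several blood lineages, so all samples come from 1 line. All were grown in maintenance culture with horse serum and a conditioned medium supplying interleukin-3, and, unfractionated cultures apart, were sorted by surface Kit (the stem cell factor receptor), Gr1 (an epitope of Ly6 family proteins on myeloid cells) and Sca1 (the product of Ly6a). RNA was hybridised to single-colour arrays for 3 samples of Kit-Gr1- cells, 3 of Gr1+ cells, 3 of Kit+Gr1-Sca1hi cells and 3 of Kit+Gr1-Sca1lo cells, and for 2 unfractionated cultures that enter no comparison here. Sca1hi and Sca1lo stand below for the last pair of sorted fractions, and Kit+Gr1- for both together.

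The DNA of mammalian cells is methylated at cytosine by Dnmt1, which copies the pattern after replication, and by Dnmt3a and Dnmt3b, which set it anew, while Tet enzymes oxidise it. Polycomb repressive complex 2 (PRC2) trimethylates lysine 27 of histone H3 through Ezh2 or its relative Ezh1, with Eed and Suz12 as partners, and Polycomb repressive complex 1 (PRC1) ubiquitinates histone H2A through Rnf2 or Ring1. Kdm1a removes methyl groups from lysine 4 of histone H3 and acts with deacetylases in repressor complexes, in blood cells also with the Gfi1 proteins. In blood formation, loss of Tet2, Dnmt3a, Asxl1 or PRC2 function is a known feature of myeloid disease.

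Values are log2 processed signals relative to the 75th percentile of the same array, so a level can be compared between arrays for 1 gene but not between genes. Errors after ± are standard errors of limma unless SD is written. A gene is said to have risen or fallen, or to have been called, where the adjusted p of limma over all 31243 genes was under 0.05. In sorted fractions, fewer cells of 1 kind in a fraction and less RNA per cell cannot be told apart. All 30 genes were well above background on all 12 sorted arrays.

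Among the sorted arrays, 79.5% to 98.9% of spots were well above background. On 3 of them, replicate 3 of Gr1+, of Sca1hi and of Sca1lo, the log2 signals were compressed, with interquartile ranges of 3.04, 2.37 and 3.42, against 4.17 to 4.92 on the other 9. The arrays came from 4 slides. Slides 1, 2 and 3 each held a Kit-Gr1- and a Gr1+ array. Both Kit+Gr1- fractions were on slide 1, Sca1lo alone on slide 2 and Sca1hi alone on slide 3. Within-slide values against Kit+Gr1- cells thus have different comparators. Slide 4 held replicate 3 of Sca1hi and of Sca1lo, both compressed, and no Kit-Gr1- or Gr1+ array. Within-slide values against Kit+Gr1- cells therefore leave out these arrays. On slide 3 the Gr1+ array was the compressed replicate 3, while the Sca1hi and Kit-Gr1- arrays there were not compressed. Within-slide values of Gr1+ cells on slide 3 thus still hold a compressed array. Kit mRNA averaged -1.83 ± 0.22 in Kit-Gr1- cells (SD, n = 3), against 0.67 ± 0.28 in Gr1+, 0.38 ± 0.50 in Sca1hi and 0.37 ± 0.19 in Sca1lo cells. The neutrophil granule gene Elane averaged 3.09 ± 0.81 in Gr1+ cells, against -3.65 ± 0.56 in Kit-Gr1-, -2.99 ± 0.51 in Sca1hi and -2.75 ± 0.57 in Sca1lo cells.

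The windows before the transcription start of the 4 genes called in Gr1+ cells are shown here, because Dnmt3b, Ezh2 and Kdm1a fell together there while Ezh1 rose. The sequences are RefSeq's on GRCm38.p6, in the direction of transcription, the 250 bases before the annotated start. Capitals mark the matches of CCAAT and GGGCGG, on either strand, where ATTGG and CCGCCC are the same motifs read from the other strand.
Dnmt3b (chr2:153649199-153649448, plus strand): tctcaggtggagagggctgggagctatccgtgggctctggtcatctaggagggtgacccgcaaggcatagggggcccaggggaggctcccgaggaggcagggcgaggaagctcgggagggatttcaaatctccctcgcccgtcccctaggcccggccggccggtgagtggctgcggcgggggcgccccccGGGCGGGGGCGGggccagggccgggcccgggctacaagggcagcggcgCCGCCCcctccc
Ezh1 (chr11:101226464-101226713, minus strand): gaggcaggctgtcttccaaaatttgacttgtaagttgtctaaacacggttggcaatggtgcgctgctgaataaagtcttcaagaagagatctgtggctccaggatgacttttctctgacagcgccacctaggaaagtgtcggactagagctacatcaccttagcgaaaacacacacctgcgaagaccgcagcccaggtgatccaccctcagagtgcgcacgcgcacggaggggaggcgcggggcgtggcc
Ezh2 (chr6:47595031-47595280, minus strand): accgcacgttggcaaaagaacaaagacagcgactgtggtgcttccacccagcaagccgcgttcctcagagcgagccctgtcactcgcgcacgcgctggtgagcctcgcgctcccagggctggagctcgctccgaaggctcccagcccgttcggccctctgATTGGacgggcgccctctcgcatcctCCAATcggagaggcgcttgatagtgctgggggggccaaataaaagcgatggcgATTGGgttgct
Kdm1a (chr4:136602724-136602973, minus strand): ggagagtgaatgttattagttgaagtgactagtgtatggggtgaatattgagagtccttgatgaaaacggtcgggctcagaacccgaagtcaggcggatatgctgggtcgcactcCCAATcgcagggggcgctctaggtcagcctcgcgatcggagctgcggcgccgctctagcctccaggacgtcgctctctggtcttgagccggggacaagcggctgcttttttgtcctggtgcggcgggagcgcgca

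The search covered these bases and the first 50 after the start, on both strands, for CCAAT (a promoter box), for GGGCGG (a GC box) and for the motifs TTTGGCGC and TTTCCCGC of the E2F kind. The matches given here do not overlap. Ezh2 held 3 CCAAT matches, at 90 to 86, 64 to 60 and 11 to 7 bases before the start, and 1 TTTGGCGC match at 4 to 11 bases after it. Dnmt3b held 4 GGGCGG matches, at 60 to 55, 54 to 49 and 12 to 7 bases before the start and 42 to 47 after it. Kdm1a held 1 CCAAT match at 135 to 131 bases before the start, and Ezh1 held none of the 4 motifs. Of all 32851 windows of this length, 37.4% held CCAAT and 35.7% held GGGCGG, while 0.514% held TTTGGCGC and 1.07% held TTTCCCGC. A window was listed for 27 of the 30 measured genes, 37 windows in all, of which 11 held CCAAT and 25 held GGGCGG, while 2 held TTTGGCGC and 1 held TTTCCCGC. In windows of the 4 genes, CpG pairs numbered 30 for Dnmt3b, 23 for Ezh1, 31 for Ezh2 and 29 for Kdm1a, against a median of 7 over all windows. Such counts were not particular to the called genes. Among uncalled regulators they were 30 for Ep300 and for Rnf2 and 33 for Smarca4, in a range from 0 (Hdac9) to 57 (Tet2). A match is a description of the letters alone.

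The most calls among the 30 genes, 4, came from Gr1+ against Kit+Gr1- cells. Dnmt3b fell 3.17-fold, Ezh2 and Kdm1a fell by less, and Ezh1 rose, so that both catalytic subunits of PRC2 moved in opposite directions. Of the 30 genes, 1 rose and 3 fell, against 4.36% higher and 3.22% lower of all 31243 genes (7.58% called in all) and 6.62% and 4.19% of the 16260 genes with a symbol. The share of all called genes that were higher was 57.5%, and 80.9% with arrays scaled to their medians, 45.4% after quantile normalization and 35.7% in the unscaled series matrix. At an unadjusted p under 0.05 there were 11 of 30, against 16.1% of all genes. The median difference of the 30 genes was -0.17, against -0.04 for all genes. Groups that did not overlap were found for 1 gene higher and 3 lower among the 30, against 6.13% and 4.01% of all genes.

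**Figure D1:**
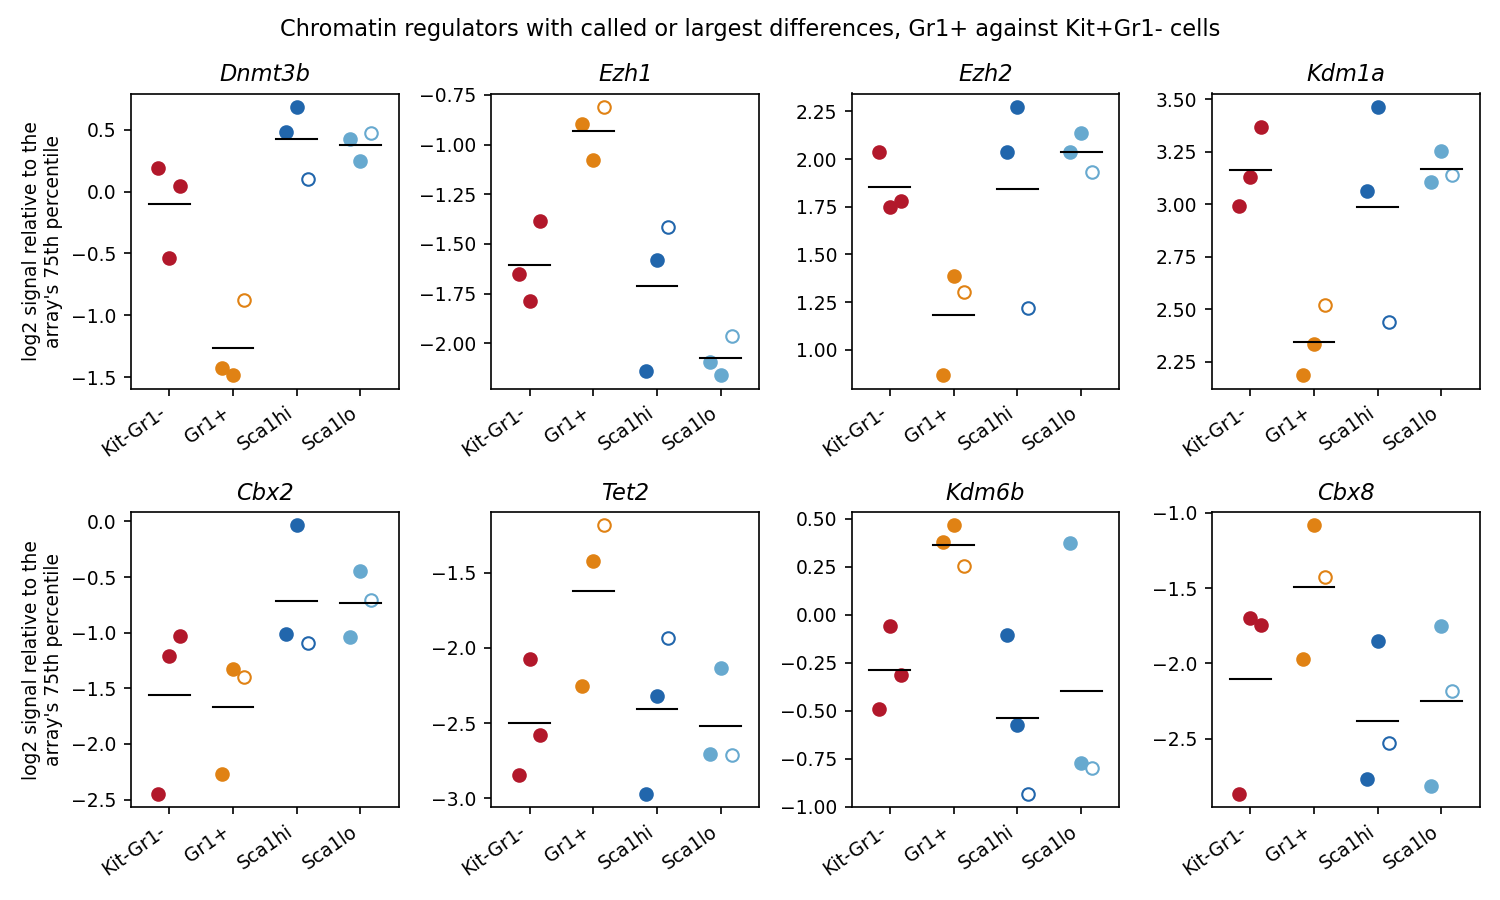
Log2 signal relative to the array's 75th percentile (y axis) on each sorted array, for the 4 called regulators and the 4 with the next largest differences between Gr1+ and Kit+Gr1- cells. Points are arrays, open points the 3 compressed arrays and bars the group means. Dnmt3b lies between -1.49 and -0.88 on Gr1+ arrays, below all others, while for Ezh2 and Kdm1a the Gr1+ arrays overlap with Sca1hi replicate 3 alone.

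Dnmt3b, one of the de novo DNA methyltransferases, measured -1.43, -1.49 and -0.88 on the Gr1+ arrays, against 0.48, 0.69 and 0.10 on the Sca1hi and 0.42, 0.25 and 0.47 on the Sca1lo arrays. All 3 Gr1+ arrays lay below all 6 Kit+Gr1- arrays. The fall was -1.67 ± 0.21 (3.17-fold, adjusted p = 0.0003 by limma). It was -1.88, -1.73 and -1.56 within slides 1, 2 and 3, and -1.92 ± 0.21 without the compressed arrays. Dnmt3b was called under all 24 alternative settings, with differences of -1.92 to -1.48. Its single probe leaves no second measurement on the array. Ezh1, Ezh2 and Kdm1a, described below, also had a single probe each. So did Dnmt3l, Idh1, Phf1, Rbbp7, Prmt1, Prmt5, Actl6a, Hells, Pcgf5, Riox2 and Mcm2 among the other genes named below.

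The maintenance enzyme Dnmt1 measured 2.41, 3.05 and 3.05 on Gr1+ arrays, against 3.37, 3.77 and 2.87 on Sca1hi and 3.32, 3.41 and 3.37 on Sca1lo arrays. Its groups overlapped through Sca1hi replicate 3, and the difference of -0.52 ± 0.20 did not pass (adjusted p = 0.193). Without the compressed arrays it was -0.74 ± 0.20 and passed (adjusted p = 0.0344). Dnmt3a, the other de novo enzyme, differed by -0.24 ± 0.13 (adjusted p = 0.419). Its 3 Gr1+ arrays, at 0.64, 0.53 and 0.49, lay just below the lowest Kit+Gr1- array at 0.69. The other Dnmt3a probes measured -0.27 and 0.07. Relative to the Kit+Gr1- mean of the same pair of genes, Dnmt3b changed by -1.15 ± 0.38 more than Dnmt1 and by -1.42 ± 0.39 more than Dnmt3a in Gr1+ cells (SD, n = 3), values in which the scaling of the arrays cancels. The corresponding values in Kit-Gr1- cells were -0.21 ± 0.36 and -0.35 ± 0.47. Tet2, the oxidase of methylcytosine, measured -2.25, -1.42 and -1.19 on Gr1+ arrays, against -2.97, -2.32 and -1.93 on Sca1hi and -2.70, -2.13 and -2.71 on Sca1lo arrays. These groups overlapped, the difference of 0.84 ± 0.32 did not pass (adjusted p = 0.168), and the second probe measured 0.53. With the compressed arrays left out Tet2 measured 0.69 ± 0.34 (adjusted p = 0.26).

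**Figure D2:**
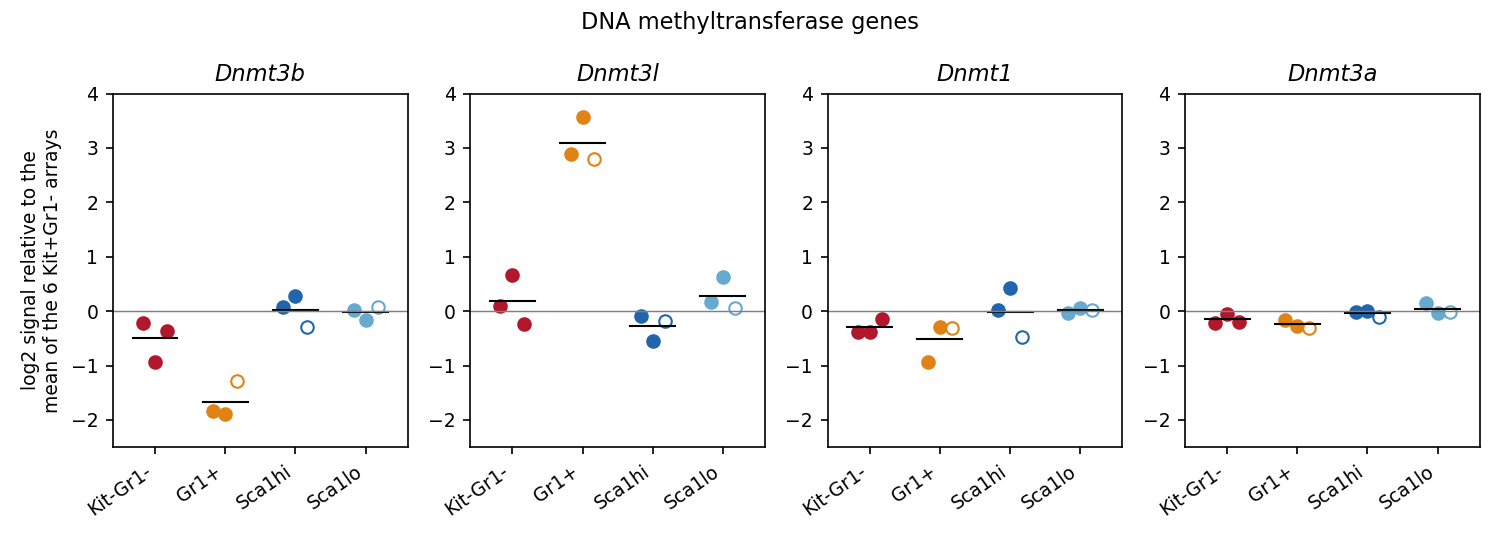
Log2 signal relative to the mean of the 6 Kit+Gr1- arrays (y axis) for 4 genes of the DNA methyltransferase family on each sorted array. Points are arrays, open points the compressed arrays and bars the group means. Dnmt3l is raised on all 3 Gr1+ arrays, Dnmt3b is lowered on the same arrays, and Dnmt3a stays near zero on every array.

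Ezh1 and Ezh2 are alternative catalytic subunits of PRC2. Ezh1 measured -0.90, -1.08 and -0.81 on Gr1+ arrays, against -2.14, -1.58 and -1.41 on Sca1hi and -2.09, -2.16 and -1.96 on Sca1lo arrays. All Gr1+ arrays were the higher, and Ezh1 rose by 0.96 ± 0.21 (1.95-fold, adjusted p = 0.0115). Within slides 1, 2 and 3 the difference was 1.22, 1.08 and 0.77. It was 1.00 ± 0.22 without the compressed arrays (adjusted p = 0.0141). Ezh1 lost its call with arrays scaled to their medians (adjusted p = 0.109), with the unscaled series matrix (0.389), with all 14 arrays (0.0776) and without Gr1+ replicate 2 (0.0505).

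Ezh2 measured 0.87, 1.38 and 1.30 on Gr1+ arrays, against 2.04, 2.27 and 1.22 on Sca1hi and 2.04, 2.14 and 1.93 on Sca1lo arrays. Sca1hi replicate 3 was the only Kit+Gr1- array within the Gr1+ range. Ezh2 fell 1.69-fold, a difference of -0.75 ± 0.21 whose adjusted p of 0.0483 was close to the threshold. Without the 3 compressed arrays the difference was -0.99 ± 0.18 (adjusted p = 0.00571), with slide as a block -0.96 ± 0.18 (adjusted p = 0.00628), and within slides -1.17, -0.75 and -0.97. Left out singly, 11 of the 12 arrays ended the call, all but Sca1hi replicate 3, with differences of -0.91 to -0.60. The call also ended with arrays scaled to their medians (adjusted p = 0.957), with no filter (0.0506) and with all 14 arrays (0.786). Relative to the Kit+Gr1- mean of the pair, Ezh1 changed by 1.72 ± 0.35 more than Ezh2 in Gr1+ cells and by 0.37 ± 0.27 more in Kit-Gr1- cells (SD, n = 3). On Sca1hi arrays that value was -0.34, -0.02 and 1.20, the last on the compressed array, and on Sca1lo arrays -0.30, -0.46 and -0.07.

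The other core subunits of PRC2 did not pass. Eed, which binds trimethylated lysine 27, was at 0.08, 0.25 and 0.29 on Gr1+ arrays, against 0.95, 0.80 and 0.28 on Sca1hi and 0.48, 0.82 and 0.86 on Sca1lo arrays, a difference of -0.49 ± 0.17 (adjusted p = 0.126). The scaffold subunit Suz12 was at 0.86, 1.19 and 1.11 on Gr1+ arrays, against 1.62, 1.71 and 0.77 on Sca1hi and 1.67, 1.73 and 1.38 on Sca1lo arrays, a difference of -0.43 ± 0.20 (adjusted p = 0.313). In both, the overlap came from Sca1hi replicate 3. Leaving out the compressed arrays, Eed measured -0.60 ± 0.16 (adjusted p = 0.0382) and Suz12 -0.66 ± 0.14 (adjusted p = 0.0143).

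Of the demethylases, Kdm1a measured 2.19, 2.33 and 2.52 on Gr1+ arrays, against 3.06, 3.46 and 2.44 on Sca1hi and 3.11, 3.25 and 3.14 on Sca1lo arrays. Again Sca1hi replicate 3 alone overlapped. Kdm1a fell 1.66-fold, a difference of -0.73 ± 0.20 with an adjusted p of 0.0402, and the values within slides 1, 2 and 3 were -0.90, -0.92 and -0.94. Without the compressed arrays it was -0.96 ± 0.16 (adjusted p = 0.00453) and with slide as a block -0.92 ± 0.13 (adjusted p = 0.00139). The call was lost on leaving out 10 of the 12 arrays singly, all but Sca1hi replicates 2 and 3, with differences of -0.87 to -0.61, and with arrays scaled to their medians or with all 14 arrays (adjusted p = 1.00 and 0.940). Kdm6b, which removes methyl groups from lysine 27, was at 0.38, 0.47 and 0.26 on Gr1+ arrays, against -0.10, -0.57 and -0.93 on Sca1hi and 0.37, -0.77 and -0.80 on Sca1lo arrays. Its difference of 0.83 ± 0.26 did not pass (adjusted p = 0.0816), nor did 0.69 ± 0.30 without the compressed arrays (adjusted p = 0.188). Its relatives Kdm6a, on the same mark, and Kdm5b, on lysine 4, measured -0.34 and -0.14. A second Kdm5b probe measured 0.23.

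Among PRC1 genes none was called. The chromodomain gene Cbx2 was at -2.27, -1.33 and -1.40 on Gr1+ arrays, against -1.01, -0.04 and -1.10 on Sca1hi and -1.04, -0.44 and -0.70 on Sca1lo arrays. These groups did not overlap, but the difference of -0.94 ± 0.35 did not pass (adjusted p = 0.159), and a second Cbx2 probe measured 0.21. With slide as a block the first probe passed (-1.19 ± 0.17, adjusted p = 0.00159), and without the compressed arrays it did not (-1.16 ± 0.46, adjusted p = 0.143). Cbx8, which encodes another chromodomain subunit, was at -1.97, -1.08 and -1.43 on Gr1+ arrays, against -2.77, -1.85 and -2.52 on Sca1hi and -2.81, -1.75 and -2.18 on Sca1lo arrays. Its difference of 0.82 ± 0.35 and that of Cbx7 of 0.80 ± 0.41 did not pass (adjusted p = 0.244 and 0.393), nor did 0.77 ± 0.46 and 0.91 ± 0.37 without the compressed arrays (adjusted p = 0.391 and 0.155). Bmi1, the E3 ligase genes Ring1 and Rnf2, Phc1 and Asxl1 lay between -0.28 and 0.22 on the probes used. The other Phc1 probes measured -0.65 and -0.47, and Ring1 passed with slide as a block (0.50 ± 0.12, adjusted p = 0.022).

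Of the deacetylases, Hdac3, the catalytic subunit of nuclear receptor corepressor complexes, was at 1.09, 1.40 and 1.58 on Gr1+ arrays, against 1.82, 2.13 and 1.31 on Sca1hi and 1.95, 2.25 and 2.15 on Sca1lo arrays. The difference was -0.58 ± 0.18 (adjusted p = 0.0827), and -0.80 ± 0.17 without the compressed arrays (adjusted p = 0.012). Hdac2 measured -0.72 ± 0.47 with a wide spread (adjusted p = 0.626), and the class IIa genes Hdac7 and Hdac9 measured -0.10 and -0.19. A second Hdac9 probe, well above background on 7 of the 12 arrays, measured 0.98. The acetyltransferases Ep300 and Crebbp measured 0.04 and -0.11. Of the other genes, the lysine 9 methyltransferases Setdb1 and Ehmt2 measured -0.39 and 0.02, and the remodelling ATPases Smarca4 and Chd4 -0.37 and 0.19, none called. The other Chd4 probes measured -0.45 and -0.18, and Smarca4 passed without the compressed arrays (-0.59 ± 0.15, adjusted p = 0.0258).

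**Figure D3:**
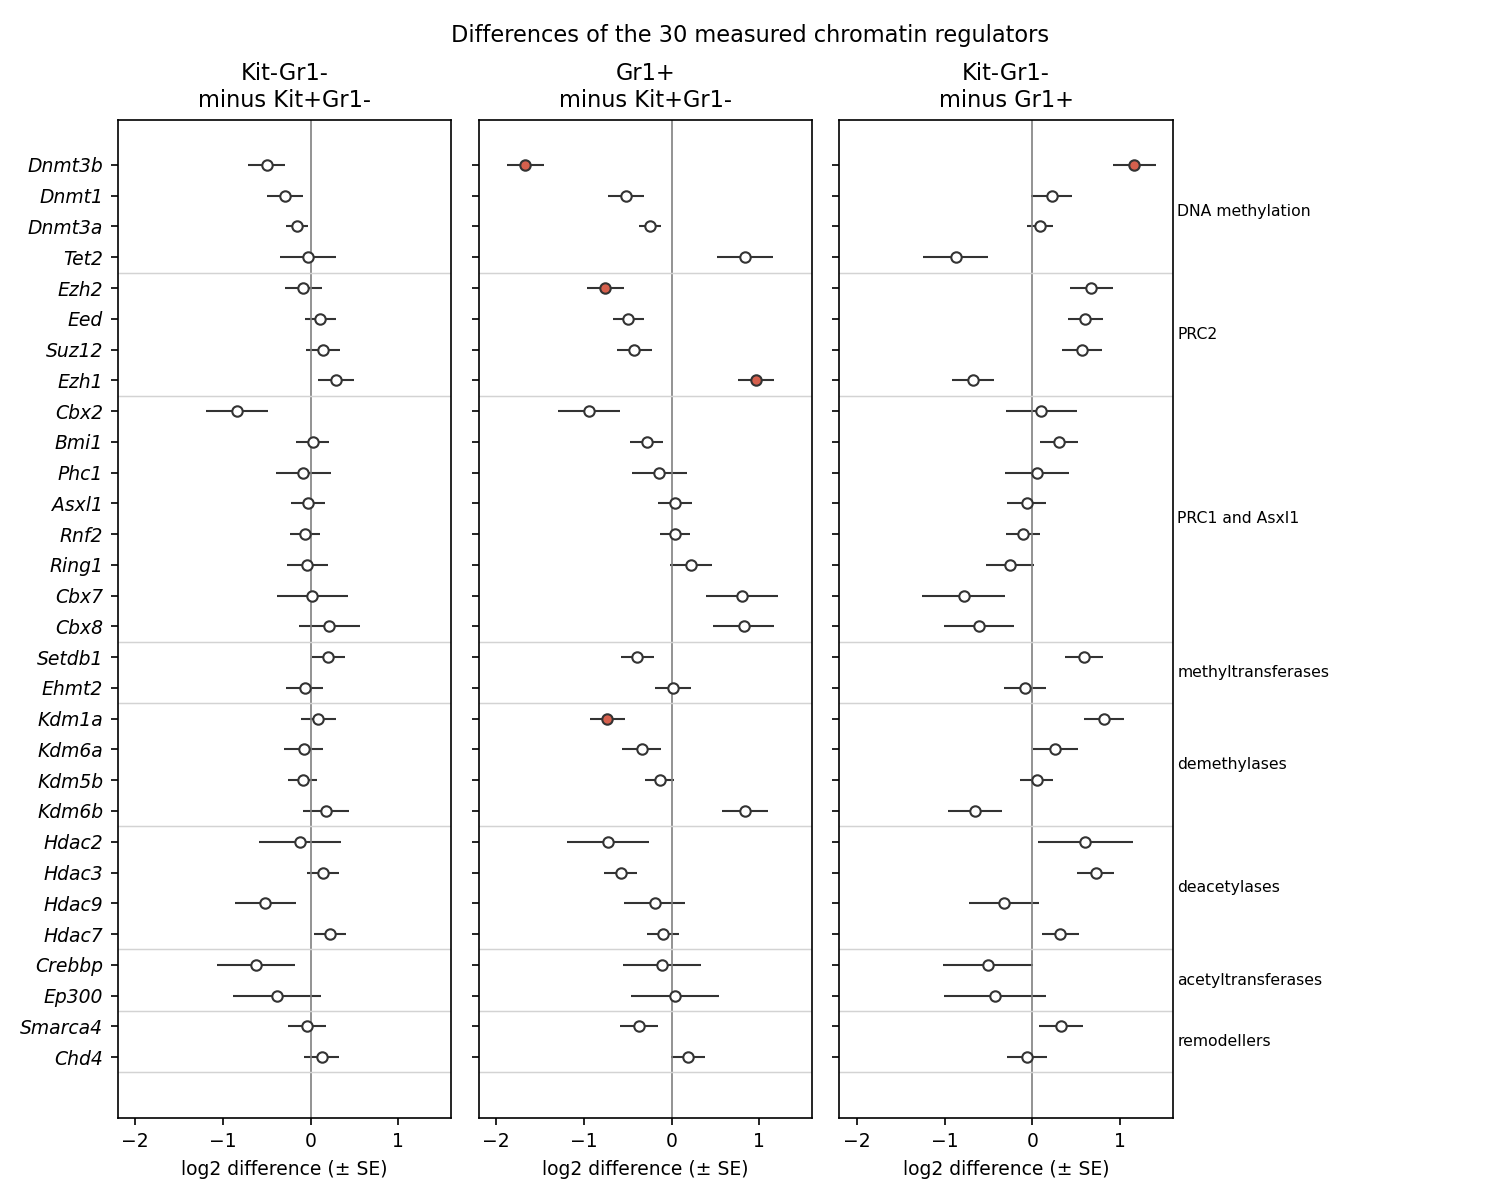
Log2 differences with standard errors (x axis) of the 30 measured regulators in 3 comparisons, grouped by role down the page. Filled points passed at an adjusted p under 0.05. Dnmt3b, Ezh2, Kdm1a and Ezh1 are filled for Gr1+ minus Kit+Gr1-, Dnmt3b alone for Kit-Gr1- minus Gr1+, and none for Kit-Gr1- minus Kit+Gr1-.

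The number of calls moved with the compressed arrays. Without them 1 gene rose (Ezh1) and 8 fell (Dnmt3b, Dnmt1, Ezh2, Eed, Suz12, Kdm1a, Hdac3 and Smarca4), against 5.3% higher and 9.13% lower of all genes in that fit. With slide as a block 4 rose (Ezh1, Tet2, Cbx8 and Ring1) and 8 fell (Dnmt3b, Dnmt1, Ezh2, Suz12, Cbx2, Kdm1a, Hdac3 and Smarca4), against 6.35% and 10.2%. Dnmt3b, Ezh1, Ezh2 and Kdm1a were called in both. These settings are not independent checks. Slide 4 held only the compressed Sca1hi and Sca1lo arrays, and a slide block lets them enter only through Sca1hi against Sca1lo.

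**Figure D4:**
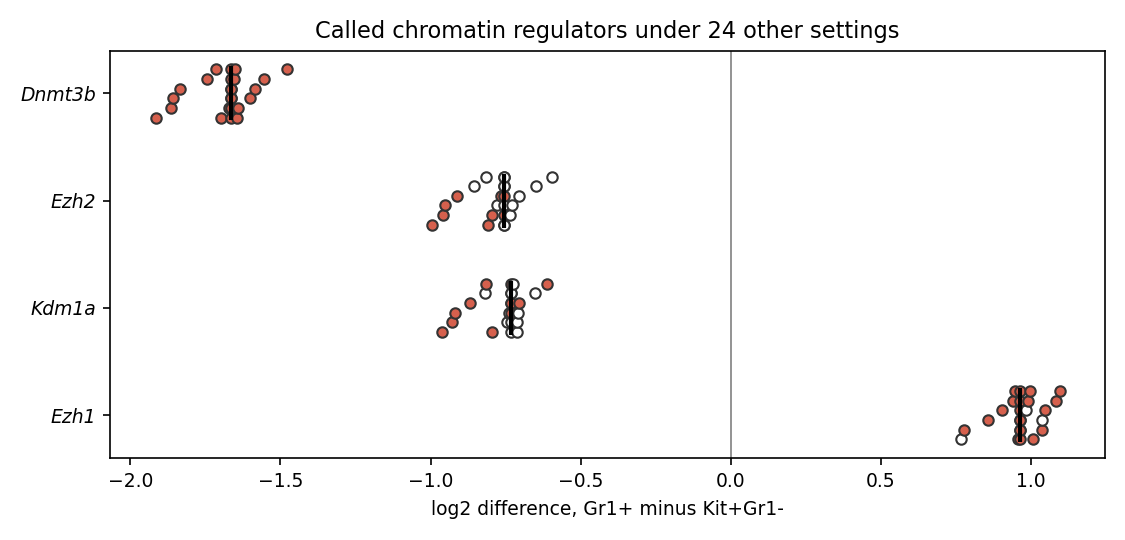
Log2 difference of Gr1+ minus Kit+Gr1- cells (x axis) for the 4 called regulators under 24 other settings. Each point is 1 setting, filled where the adjusted p was under 0.05, and the vertical bar is the reported value. All points of Dnmt3b are filled, 20 of 24 for Ezh1, 12 for Kdm1a and 10 for Ezh2, and no point changes sign.

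Genes of replication and mitosis, which mark dividing cells, also had lower values in Gr1+ cells. All 23 measured had a negative difference, 2 of them called (Tyms at -0.92 ± 0.21 and Mcm2 at -0.85 ± 0.19). The median was -0.46, against -0.04 for all genes, of which 3.22% fell. The mean level of the list ran from 2.79 to 3.46 on Gr1+ arrays, against 3.03 to 3.98 on Sca1hi and 3.62 to 3.89 on Sca1lo arrays. In the fit without the compressed arrays 15 of 23 fell, where 9.13% of all genes did. Markers of other cell types moved as well: all 10 neutrophil genes, 3 of 5 eosinophil, 5 of 7 mast cell and basophil and 3 of 6 monocyte and macrophage genes rose in Gr1+ cells. Of all genes 4.36% rose. The part of division or of cell mixture in the regulators' differences was not tested.

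Lists of related chromatin genes gave further calls in Gr1+ cells. Dnmt3l, an inactive partner of the de novo methyltransferases, measured 1.77, 2.45 and 1.68 on Gr1+ arrays, against -1.21, -1.67 and -1.30 on Sca1hi and -0.95, -0.49 and -1.07 on Sca1lo arrays. The groups lay far apart, and Dnmt3l rose by 3.09 ± 0.24 (8.49-fold, adjusted p = 7.9e-06), opposite to Dnmt3b. It was called under all 24 alternative settings, with differences of 2.85 to 3.23. Of the 14 other DNA methylation genes measured, Idh1, which makes the cosubstrate of Tet enzymes, was the only other call (1.06 ± 0.29 higher), and it was called under 11 of the 24 alternative settings. In the fit without the compressed arrays 1 of the 14 rose and 2 fell, and with slide as a block 3 rose and 4 fell.

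Of 7 other PRC2 genes, Phf1, an accessory subunit, rose and Rbbp7, a histone chaperone shared with other complexes, fell. Phf1 measured -0.13, 0.18 and -0.28 on Gr1+ arrays, against -1.36, -0.72 and -1.78 on Sca1hi and -1.47, -1.29 and -1.61 on Sca1lo arrays, a rise of 1.30 ± 0.23 (adjusted p = 0.00345). Rbbp7 differed by -0.87 ± 0.18 (adjusted p = 0.0105). Of 18 other PRC1 genes Pcgf6 alone was called, at -0.87 ± 0.15, with a second probe at -0.51. Of the 7 PRC2 genes 1 rose and 3 fell both without the compressed arrays and with slide as a block. Of the 18 PRC1 genes 4 fell without the compressed arrays, and 2 rose and 5 fell with slide as a block.

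Of 19 other histone methyltransferase genes 4 fell and none rose, where 3.22% of all genes fell, and 8 fell both without the compressed arrays and with slide as a block, where 9.13% and 10.2% did. They were the arginine methyltransferases Prmt1 (-0.85), Prmt5 (-0.78) and Carm1 (-0.75, with a second probe at -0.08) and the lysine 9 enzyme Suv39h2 (-0.73). Prmt1 was called under 15 and Suv39h2 under 10 of the 24 alternative settings. Of 15 other deacetylase genes the NAD-dependent Sirt7 (0.73) and Sirt2 (0.67) rose and none fell, with Sirt7 called under 12 and Sirt2 under 19 of the 24 settings. That count was 2 up and 5 down without the compressed arrays, and 3 up and 4 down with slide as a block. None of 15 other demethylase and 8 other acetyltransferase genes was called. Without the compressed arrays 1 demethylase and 2 acetyltransferase genes fell, and with slide as a block 1 demethylase gene rose and 1 of each kind fell. Of 25 other remodelling genes 4 fell, namely Mta3 of the NuRD complex (-1.13), Smarcc1 (-1.10) and Actl6a (-0.85) of the BAF complex and the helicase Hells (-0.84), and 24 of the 25 differences were negative. The count of remodelling genes that fell was 11 without the compressed arrays and 10 with slide as a block. Medians of these lists ran from -0.35 to 0.13, against -0.04 for all genes.

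Between Kit-Gr1- and Gr1+ cells, Dnmt3b was the only one of the 30 genes called, and it was higher in Kit-Gr1- cells. This comparison shares its Gr1+ arrays with the preceding one, so the values of both are not independent. Dnmt3b measured 0.19, -0.54 and 0.05 on Kit-Gr1- arrays, against -1.43, -1.49 and -0.88 on Gr1+ arrays. The groups did not overlap, and the difference was 1.16 ± 0.24 (2.24-fold, adjusted p = 0.0128). It was 1.62, 0.95 and 0.92 within slides 1, 2 and 3. The call was lost with arrays scaled to their medians (adjusted p = 0.134), with the unscaled series matrix (0.0889) and on leaving out Kit-Gr1- replicate 1 (0.0726), Kit-Gr1- replicate 3 (0.0692) or Gr1+ replicate 2 (0.0842).

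One call of 30 compares with 5.52% of all genes (2.7% higher and 2.82% lower, or 3.82% and 4.15% of genes with a symbol), and 9 of 30 with an unadjusted p under 0.05 compares with 14.9%. The groups did not overlap for 9 genes higher (Dnmt3b, Ezh2, Eed, Suz12, Bmi1, Kdm1a, Hdac3, Smarca4 and Setdb1) and 2 lower (Ezh1 and Kdm6b), against 13.7% and 14.1% of all genes. The median of the 30 differences was 0.07, against -0.20 for all genes.

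Kdm1a measured 2.99, 3.13 and 3.37 on Kit-Gr1- arrays, against 2.19, 2.33 and 2.52 on Gr1+ arrays, a difference of 0.82 ± 0.23 that did not pass (adjusted p = 0.0592). Hdac3 measured 1.94, 2.12 and 2.18 on Kit-Gr1- arrays, against 1.09, 1.40 and 1.58 on Gr1+ arrays, a difference of 0.72 ± 0.21 (adjusted p = 0.0722). In both genes the 3 Kit-Gr1- arrays were the higher. Ezh2 measured 2.04, 1.75 and 1.78 on Kit-Gr1- arrays, against 0.87, 1.38 and 1.30 on Gr1+ arrays, and Ezh1 -1.65, -1.79 and -1.39 on Kit-Gr1- arrays, against -0.90, -1.08 and -0.81 on Gr1+ arrays. Neither passed, with differences of 0.67 ± 0.25 for Ezh2 and -0.68 ± 0.24 for Ezh1, nor did their partners Eed (0.60 ± 0.20) and Suz12 (0.57 ± 0.23). Tet2 measured -2.84, -2.07 and -2.58 on Kit-Gr1- arrays, against -2.25, -1.42 and -1.19 on Gr1+ arrays, a difference of -0.88 ± 0.37 with overlapping groups. Cbx7 measured -4.78, -3.67 and -4.13 on Kit-Gr1- arrays, against -3.69, -3.33 and -3.21 on Gr1+ arrays, a difference of -0.78 ± 0.47, also with overlap. Kdm6b measured -0.49, -0.06 and -0.32 on Kit-Gr1- arrays, against 0.38, 0.47 and 0.26 on Gr1+ arrays, a difference of -0.65 ± 0.30 that did not pass (adjusted p = 0.34). Hdac9 differed by -0.33 on the probe used and by -2.53 on the second, which was well above background on 7 of the 12 arrays.

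Without the compressed arrays 7 genes rose in Kit-Gr1- cells (Dnmt3b, Ezh2, Eed, Suz12, Setdb1, Kdm1a and Hdac3) and none fell, against 7.65% higher and 4.37% lower of all genes. With slide as a block 5 rose (Dnmt3b, Ezh2, Suz12, Kdm1a and Hdac3) and 2 fell (Ezh1 and Tet2), against 8.29% and 5.52%. Among the related lists, Dnmt3l was lower in Kit-Gr1- cells by -2.91 ± 0.28 (adjusted p = 5.5e-05), with the deaminase gene Apobec1 at -1.08. The NuRD gene Mta3 measured 3.59, 3.28 and 3.69 on Kit-Gr1- arrays, against 1.77, 2.06 and 2.03 on Gr1+ arrays, a rise of 1.57 ± 0.24 (adjusted p = 0.00155), and its second probe measured 1.61. Kdm2b (0.91), Pcgf6 (0.77) and Bcor (0.72) of PRC1 rose and Pcgf5 (-0.92) fell, but the other Bcor probes measured -0.49 and -0.0091 and one other Kdm2b probe -0.072. Actl6a, Rbbp7, Prmt5, Riox2, Carm1 and Dot1l rose by 0.70 to 0.90. Other probes of these genes measured -0.17 for Carm1 and -0.011 and 0.018 for Dot1l. The replication genes Tyms and Mcm2 rose, with a median of 0.43 over the list. Of the 24 alternative settings, Dot1l was called under 10, Riox2 and Carm1 under 11, Prmt5, Mcm2 and Apobec1 under 12, Pcgf5 under 13, Rbbp7 under 15 and Bcor under 9. Leaving out 1 array at a time kept the call of Riox2, Prmt5 and Bcor in 2 of 12 fits and of Carm1, Dot1l, Pcgf5 and Mcm2 in 3. Without the compressed arrays the genes that rose numbered 7 of 25 remodelling and 8 of 23 replication genes.

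In Kit-Gr1- cells against Kit+Gr1- cells, a comparison that shares its Kit+Gr1- arrays with the first, none of the 30 genes was called, where 0.378% of all genes were (118 genes). At an unadjusted p under 0.05 there were 2 of 30 (Dnmt3b and Cbx2), against 6.04% of all genes. All adjusted p of these genes were 0.687 or more. Dnmt3b, at 0.19, -0.54 and 0.05 on Kit-Gr1- arrays, against 0.48, 0.69 and 0.10 on Sca1hi and 0.42, 0.25 and 0.47 on Sca1lo arrays, differed by -0.50 ± 0.21. It lay in between Gr1+ and Kit+Gr1- cells, and its Kit-Gr1- range overlapped with that of the Kit+Gr1- arrays.

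Cbx2 had the largest difference, with -2.45, -1.21 and -1.03 on Kit-Gr1- arrays, against -1.01, -0.04 and -1.10 on Sca1hi and -1.04, -0.44 and -0.70 on Sca1lo arrays, or -0.84 ± 0.35. Its second probe measured -0.48. With slide as a block Cbx2 was the only call (-1.09, adjusted p = 0.0245), where 0.893% of all genes were called. Within slides 1, 2 and 3 it measured -1.42, -0.77 and -0.99. Dnmt1, at 2.98, 2.98 and 3.22 on Kit-Gr1- arrays, against 2.87 to 3.77 on Kit+Gr1- arrays, differed by -0.30 ± 0.20. Hdac7, at 1.15, 1.64 and 1.66 on Kit-Gr1- arrays, against 0.78 to 1.49 on Kit+Gr1- arrays, differed by 0.22 ± 0.18. Ezh1 differed by 0.29 ± 0.21, and with arrays weighted by their quality Dnmt3b, Dnmt1 and Ezh1 were called, where 16.9% of all genes were.

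Crebbp (-0.62 ± 0.45), Hdac9 (-0.52 ± 0.35) and Ep300 (-0.39 ± 0.50) differed through few arrays. Crebbp, an acetyltransferase of enhancers, measured -2.55, -2.40 and -2.55 on Kit-Gr1- arrays, against -2.27, -2.22 and -0.26 on Sca1hi and -2.10, -2.36 and -2.07 on Sca1lo arrays. The groups lay apart by a narrow gap, and the high value was that of the compressed Sca1hi replicate 3. With those arrays left out Crebbp measured -0.26, its relative Ep300 0.048 and Hdac9 -0.19. On all 12 arrays, the second Hdac9 probe measured -1.56 and was well above background on 7. No gene of the related chromatin lists was called in this comparison. Markers of red cells (4 of 9) and megakaryocytes (3 of 6) rose in the same cells, among which Gata1 averaged 2.36 ± 0.26 in Kit-Gr1-, against -0.18 ± 0.22 in Sca1hi and 0.74 ± 0.06 in Sca1lo cells (SD, n = 3). All 7 mast cell and basophil markers also had a positive difference, with a median of 1.41, but none was called. The median was 2.08 for the red cell and 1.27 for the megakaryocyte markers.

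Between Sca1hi and Sca1lo cells, limma called none of the 30 genes and 0% of all genes, and the adjusted p of each was 1.00. At an unadjusted p under 0.05 there were 0 of 30 and 0.845% of all genes. No group of the 30 genes stood apart, against 3.2% of all genes. Differences ran from -0.39 (Phc1) to 0.70 (Ep300). Ep300 measured -2.55, -2.43 and -0.08 on Sca1hi arrays, against -2.43, -2.49 and -2.26 on Sca1lo arrays, and Crebbp and Hdac2 showed the same pattern, with their highest values on Sca1hi replicate 3. Without the compressed arrays Ep300 measured -0.033, Crebbp -0.018 and Hdac2 0.14. Phc1, a PRC1 scaffold gene, measured 0.44, -0.27 and -0.45 on Sca1hi arrays, against 0.49, 0.08 and 0.33 on Sca1lo arrays, and its other probes differed by -0.099 and 0.77. Hdac3 differed by -0.36 ± 0.21, Cbx7 by 0.31 ± 0.47 and Hdac9 by 0.25 ± 0.40, all with overlapping groups. The second Hdac9 probe, well above background on 7 of the 12 arrays, measured 1.54, and a second Ep300 probe 0.19. Dnmt3b differed by 0.04 ± 0.24, Ezh2 by -0.19 ± 0.25 and Kdm1a by -0.18 ± 0.23, and Ezh1 by 0.36 ± 0.24. Ly6a, the gene of the sorting antigen Sca1, averaged -0.26 ± 0.37 in Sca1hi and -2.58 ± 0.33 in Sca1lo cells (SD, n = 3). Its difference of 2.32 was not called in the main fit, although its groups did not overlap. A p that misses the threshold does not show that the fractions were alike.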

How the data were processed

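Spot intensities were deposited for 14 single-colour arrays. Per the file headers, the authors extracted them with Agilent Feature Extraction (10.1.1.1), and the processed intensity of each spot was used. How it was background-corrected is not given in the sources used here. The deposited series matrix holds log2 values that equal log2 of these intensities (largest difference 5e-09), unscaled between arrays.

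Control and flagged outlier spots were left out, spots of a probe averaged, and log2 intensities scaled to each array's 75th percentile. Accessions gave symbols to 23374 of 41174 probes through a RefSeq table on GRCm38.p6, used for names since the headers name another build. A probe was kept if well above background on 3 of the 12 sorted arrays or more (38874 probes), and a gene was represented by its brightest such probe on average.

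limma 3.58.1 in R 4.3.3 (lmFit, eBayes with a trend) fitted 4 groups on 12 arrays, with no covariates, 8 residual and 4.89 prior degrees of freedom, two-sided, with Benjamini-Hochberg adjustment over 31243 genes. The unfractionated pair stayed out. Kit+Gr1- is the mean of both its fractions. Replicates are biological per the series' design, and the number of arrays limits precision. The fit was tested on simulated data. Named in each comparison were called members and then the largest differences up to 8 genes, and in related lists up to 4 called genes. Members, lists and settings were chosen with earlier results of these data known. Alternatives were array medians, quantile normalization, normexp, the series matrix, other filters, the mean of a gene's probes, slide or replicate as a block, array weights, all 14 arrays, leaving out arrays, and a 2-fold call. Figures were drawn with matplotlib 3.10.9 under Python 3.11.15, and tables with pandas 2.3.3.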

Additional observations from a re-analysis of the deposited data

How the results depend on the processing

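All-gene medians moved with the scaling. For Kit-Gr1- minus Kit+Gr1- the median was -0.23, against 0.09 with array medians, 0.01 with quantiles and -0.46 in the unscaled matrix, for Kit-Gr1- minus Gr1+ -0.20, 0.10, 0.09 and -0.23, and for Gr1+ minus Kit+Gr1- -0.04, -0.02, -0.08 and -0.24. Relative to it, Dnmt3b in Gr1+ minus Kit+Gr1- was -1.62, -1.62 with array medians and -1.59 with quantiles, and Ezh1 1.00, 1.01 and 1.16. The share of calls that were higher in Gr1+ than Kit+Gr1- cells was 57.5%, against 80.9% with array medians, 45.4% with quantiles and 35.7% in the matrix. In Kit-Gr1- against Kit+Gr1- cells it was 82.2%, against 95.5%, 69.2% and 56.6%, and in Kit-Gr1- against Gr1+ cells 49.0%, against 39.0%, 57.7% and 50.1%.

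Calls over all genes in Kit-Gr1- against Kit+Gr1- were 118, and 44 with array medians, 227 with quantiles, 279 with slide as a block, 22 with all 14 arrays, 5279 with array weights and 26 to 244 leaving out 1 array. In Gr1+ against Kit+Gr1- they were 2367, and 697, 4118, 5168, 685 and 6290 under the same settings, 4212 without the compressed arrays, 1354 at 2-fold or more and 975 to 4437 leaving out 1 array. In Kit-Gr1- against Gr1+ they were 1725, and 561, 2876, 4313, 521 and 5497, 3510 without the compressed arrays and 758 to 3697. In Sca1hi against Sca1lo they were 0, and 3 with slide as a block, 28 with array weights and 0 to 1.

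Regulators called in Gr1+ against Kit+Gr1- were 4, and 1 with array medians, with all 14 arrays or at 2-fold, 9 with quantiles or without the compressed arrays, 12 with slide as a block, 14 with array weights and 1 to 9 leaving out 1 array. In Kit-Gr1- against Gr1+ they were 1, and 0 with array medians, 2 with normexp or with probes well above background on all 12 arrays, 4 with quantiles, 7 with slide as a block or without the compressed arrays, 9 with array weights and 0 to 6. In Kit-Gr1- against Kit+Gr1- they were 0, and 1 with slide as a block, 3 with array weights and 0 to 0, and in Sca1hi against Sca1lo 0 throughout. Calls over all genes moved under the same settings, as given above. In Kit-Gr1- against Gr1+, normexp called 1845 of 31243 genes and the filter on all 12 arrays 1812 of 24968.

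With the replicate number as a block, calls were 346 over all genes in Kit-Gr1- against Kit+Gr1- and 2 in Sca1hi against Sca1lo, with 3072 genes and 8 regulators in Gr1+ against Kit+Gr1- (Tet2, Cbx2, Cbx8 and Kdm6b added) and 2351 and 3 in Kit-Gr1- against Gr1+ (Hdac3 and Kdm1a added). Same-numbered arrays of different groups deviated together (r over 0.1) in 13 of 18 pairs, between -0.30 and 0.86 (median 0.40). Values between the compressed arrays, all replicate 3, were 0.86, 0.85 and 0.79. Those of the same arrays with Kit-Gr1- replicate 3 were -0.30, -0.19 and -0.01. Arrays of other numbers did so in 11 of 36 (median -0.093). Of the 12 arrays, 10 were closest to an array of their own number. Arrays of different groups on the same slide had r over 0.1 in 10 of 13 pairs (median 0.18), against 14 of 41 on other slides (median -0.054). All sorted replicate 1 arrays were on slide 1, so a shared number and a shared slide cannot be told apart there. The hint at pairing, or at slides, comes from the data and not the design, and the main fit took no pairs.

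Differences changed sign in 25 instances, none of a call among the 30 regulators. In Kit-Gr1- against Kit+Gr1-, Ep300 became 0.048 without the compressed arrays and 0.026 with array weights, and ran from -0.60 to 0.014 leaving out 1 array. Dnmt1 became 0.025 with array medians and Hdac7 -0.012 in the matrix. In Sca1hi against Sca1lo, Ep300 became -0.033 without the compressed arrays and -0.072 with array weights, and Crebbp -0.018 and -0.054. Leaving out 1 array, Ep300 ran from -0.10 to 1.14, Crebbp from -0.070 to 0.94, Hdac2 from -0.0069 to 0.71, Cbx7 from -0.0024 to 0.52 and Hdac9 from -0.23 to 0.76, each lowest without Sca1hi replicate 3. Hdac9 was -0.057 without the compressed arrays, Cbx7 -0.16 with quantiles, Phc1 0.094 with the mean of probes and 0.050 with array weights, and Ezh1 -0.0023 with array weights. Bcor in Kit-Gr1- against Gr1+ became -0.48 with normexp and -0.49 with all 14 arrays, and ran from -0.58 to 0.75 leaving out 1 array. With all 14 arrays and on leaving out 1 array, its negative values are those of another of its probes. On the probe first used, all Kit-Gr1- arrays (2.07 to 2.29) lay above all Gr1+ arrays (1.42 to 1.56). The cause of the other sign changes was not tested. Normexp on median signals was chosen after seeing the data, and the planned normexp on mean signals was not run.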

Other observations

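The unfractionated cultures entered no comparison above. Dnmt3b measured -1.26 and -1.16 relative to the array's 75th percentile in unfractionated replicates 1 and 2, Ezh1 -0.40 and -1.16, Ezh2 -0.78 and 1.53 and Kdm1a 0.19 and 2.75. Replicate 1 had 99.5% of spots well above background and a log2 interquartile range of 1.78, against 81.9% and 4.82 for replicate 2. Crebbp was at 0.92 and -2.17 and Ep300 at 1.09 and -2.29.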
